A study of Mus musculus with 9 samples.

Results

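Of 18193 genes named on the arrays, 10 genes of the vascular endothelium were followed in mouse cochlear RNA: Vegfa, Kdr, Flt1, Tek, Tie1, Eng, Cdh5, Pecam1, Cldn5 and Vwf. They were read on 16 probe sets, those whose array annotation gives exactly 1 of these 10 symbols, of 45037 probe sets in all. Of the 16, 14 passed the filter on low signal and were tested, at least 1 for each of the 10 genes. The samples were whole cochleae of male C57BL/6 mice in 3 groups of 3 arrays each. Calorie-restricted mice (CR) were 15 months old and had received 62 kcal per week since 2 months of age. Middle-age controls (MC) were also 15 months old and received 84 kcal per week, and young controls (YC) were 4 months old on the same control ration. Each array carried a pool of 4 cochleae from 2 mice that were housed singly, so differences between the mice of a pool are averaged away.

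The endothelium is the cell layer that lines blood vessels. It is steered by secreted ligands, among them vascular endothelial growth factor, which acts on the receptor tyrosine kinases encoded by Kdr and Flt1, and the angiopoietins, which act on the receptor encoded by Tek. In the cochlea the densest capillary bed lies in the stria vascularis of the lateral wall, where tight endothelial junctions form a blood-labyrinth barrier. In whole cochlear RNA, fewer endothelial cells and less RNA per endothelial cell cannot be told apart.

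The arrays differed in median signal, in a way that followed CR and MC and divided YC. Median deposited signals lay between 526.8 and 626.6 on 4 arrays (all of CR and YC 1) and between 842.4 and 1103.9 on the other 5 (all of MC, YC 2 and YC 3), so array class and diet cannot be told apart without YC 1. Values below are log2 signals after quantile normalization, which gives every array the same distribution, unless the deposited signal is named. Of the listed markers with a probe set, 13 of 14 for the lateral wall and fibrocytes passed the signal filter. For hair cells and the organ of Corti it was 8 of 13. The filter is a rank cut that 27022 of all 45037 probe sets passed, so passing does not show that a gene is expressed. Muscle and brain genes were measured in the same pools, and their levels are given with the other cell types below. Among the 10 endothelial genes, the SD over the 3 arrays of a group was at most 0.29 in CR, against at most 2.13 in MC and 1.17 in YC. The SD was lower in CR than in MC for 8 of the 10 genes, as for 77.5% of all tested probe sets.

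None of the 10 genes differed between groups beyond the error of the fit. In limma, 0 of the 14 probe sets passed an adjusted p of 0.05 for CR against MC, where 0.0925% of 27022 tested probe sets did. The count was also 0 of 14 for MC against YC and for CR against YC, where 0% of all tested probe sets passed. At an unadjusted p of 0.05, 0 of the 14 passed in any of the 3 comparisons, against 18.5%, 3.39% and 10.8% of all tested probe sets in that order. The F test over the 3 groups gave the 14 probe sets adjusted p-values from 0.492 to 0.959, where 0% of all tested probe sets passed, and 11.9% had an unadjusted p under 0.05. By the brightest probe set of each gene, 4 of the 10 genes had a positive log2 change and 6 a negative one for CR minus MC, with a median of -0.18 beside 0.08 over all tested probe sets. For MC minus YC the split was 5 and 5, with a median of 0.11 beside 0.02. The 95% intervals reached 3.56 log2 units for CR minus MC and -3.40 for MC minus YC, both in Pecam1, so a missing call does not show that levels were alike.

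**Figure D1:**
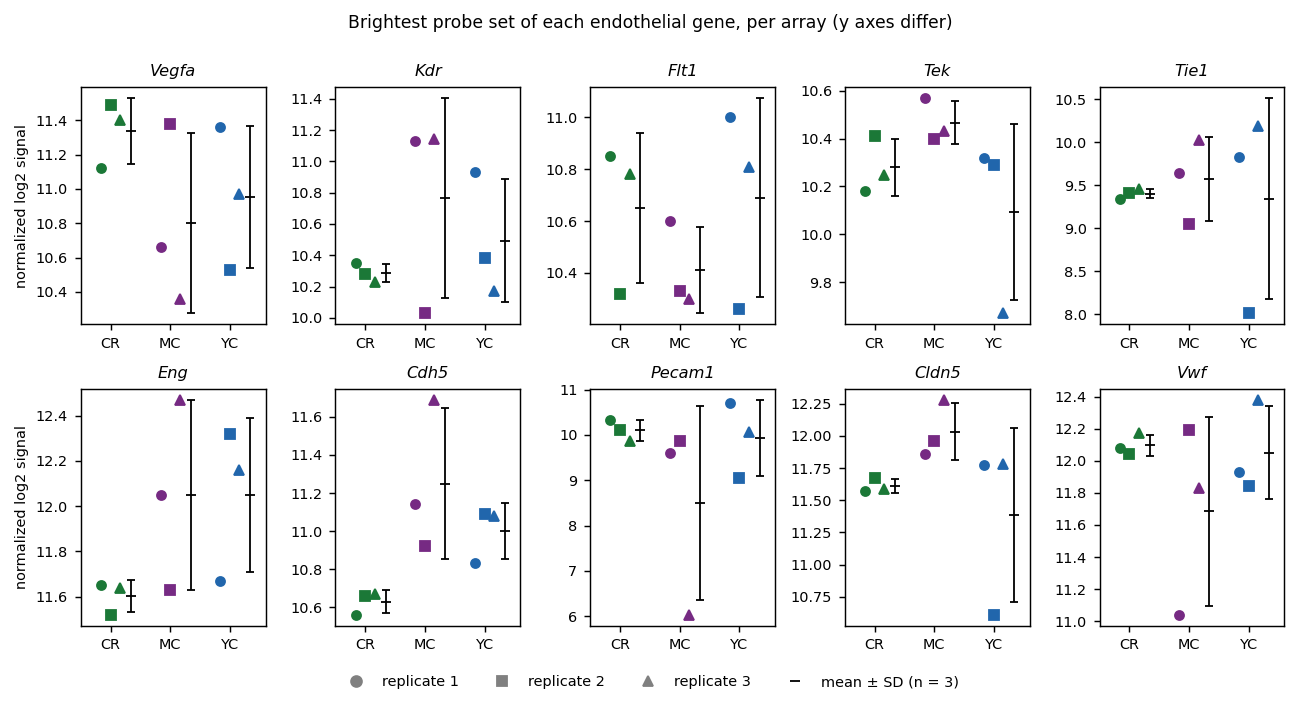
Normalized log2 signal (y axis, scaled for each panel) of the brightest probe set of each of the 10 genes in CR, MC and YC; each symbol is 1 array, its shape gives the replicate number, and the bar beside it is the mean ± SD of 3 arrays. The CR arrays lie close together in most panels, while single MC or YC arrays lie far off, as MC 3 does in Pecam1 and YC 2 in Cldn5 and Tie1.

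Vegfa encodes the main secreted growth factor of the endothelium and is itself made mostly by neighbouring cells. Its brighter probe set (1420909_at) read 11.12, 11.49 and 11.40 in CR 1 to 3, 10.66, 11.38 and 10.36 in MC 1 to 3, and 11.36, 10.53 and 10.97 in YC 1 to 3. MC 2 lay among the CR arrays and MC 3 was the lowest of the 9, so the groups overlapped. The log2 change was 0.54 ± 0.34 (SE, n = 3 per group, 95% interval -0.21 to 1.28, limma adjusted p = 0.399) for CR minus MC and -0.15 ± 0.34 for MC minus YC (adjusted p = 1.0). The dimmer probe set (1451959_a_at) did not pass the filter, and its deposited signals ran from 212.0 to 475.1 in CR, 82.3 to 688.5 in MC and 68.5 to 379.2 in YC. Without the filter its log2 change was 1.21 ± 0.98 for CR minus MC, of the same sign as the brighter one (adjusted p = 0.545).

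Eng encodes endoglin, a co-receptor for ligands of the transforming growth factor beta family on endothelial cells. Its brighter probe set (1417271_a_at) read 11.65, 11.52 and 11.64 in CR 1 to 3, 12.05, 11.63 and 12.47 in MC 1 to 3, and 11.67, 12.32 and 12.16 in YC 1 to 3. All CR arrays lay below all YC arrays, and MC 2 lay within the CR range. The log2 change was -0.44 ± 0.27 (SE, 95% interval -1.05 to 0.16, adjusted p = 0.387) for CR minus MC, and for MC minus YC the interval ran from -0.60 to 0.60 around a change close to 0. The second probe set (1432176_a_at) read 10.96, 11.01 and 10.62 in CR 1 to 3, 9.55, 10.78 and 9.78 in MC 1 to 3, and 10.74, 9.37 and 10.58 in YC 1 to 3. It ran the other way, with a log2 change of 0.83 ± 0.45 for CR minus MC (adjusted p = 0.337). The Eng probe sets also differed in how they stood to Vegfa. The 4 arrays lowest in the brighter Vegfa probe set (MC 1, MC 3, YC 2 and YC 3) were the 4 highest in the brighter Eng probe set and the 4 lowest in the second one, so the gene as a whole has no settled order against Vegfa. All 4 belong to the class with high medians, while MC 2 of that class lay beside CR in the brighter probe sets of both genes.

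Promoter windows are shown for Vegfa, the ligand of the set, and for Eng, whose probe sets ran opposite ways, from 250 bases before to 50 after the annotated start. They come from RefSeq on GRCm38.p6, at chr17:46032328-46032627 (minus strand) for Vegfa and chr2:32646345-32646644 (plus strand) for Eng, written 5′ to 3′ along the gene. Capitals mark matches to GGAAG and to ACGTG on either strand. GGAAG is a form of the core bound by the ETS factor family, whose members Erg and Fli1 act in endothelial cells. Other forms of that core were not searched. ACGTG is the core that hypoxia-inducible factors bind.
Vegfa: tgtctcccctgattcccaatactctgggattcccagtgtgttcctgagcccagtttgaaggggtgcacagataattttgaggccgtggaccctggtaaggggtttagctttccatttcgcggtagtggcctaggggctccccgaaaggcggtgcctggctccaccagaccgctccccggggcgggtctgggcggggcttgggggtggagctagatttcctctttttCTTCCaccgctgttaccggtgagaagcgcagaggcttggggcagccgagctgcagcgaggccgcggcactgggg
Eng: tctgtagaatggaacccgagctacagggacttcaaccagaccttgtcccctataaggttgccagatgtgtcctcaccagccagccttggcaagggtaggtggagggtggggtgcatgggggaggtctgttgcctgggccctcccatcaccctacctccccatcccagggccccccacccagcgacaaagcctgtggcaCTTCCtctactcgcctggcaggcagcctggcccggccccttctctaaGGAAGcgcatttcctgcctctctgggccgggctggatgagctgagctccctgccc
The Vegfa window held 1 GGAAG core and the Eng window 2, with no ACGTG in either, and no base lay in matches of both motifs. Of 32851 windows of this length, 71.4% held GGAAG and 19.6% ACGTG. Windows were found for 7 of the 10 genes, and Vegfa had a second one downstream with 2 GGAAG cores and 1 ACGTG. Whether that second annotated start is used in the cochlea was not tested. The ETS core occurred 7 times in the window of Tie1, 3 times in that of Flt1, 1 time in that of Kdr and in neither that of Tek nor that of Cldn5. A match describes these letters only.

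**Figure D2:**
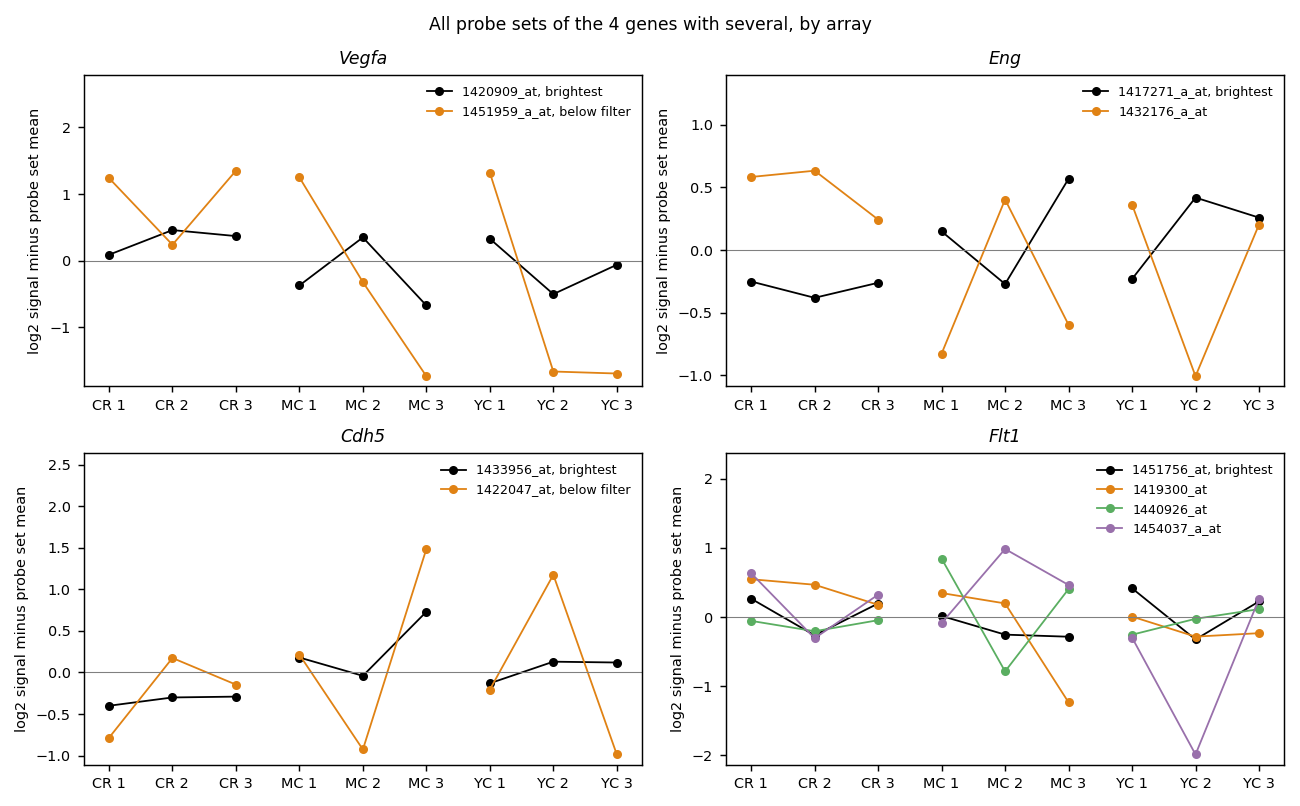
Log2 signal of each probe set minus its own mean over the 9 arrays (y axis) by array (x axis) for Vegfa, Eng, Cdh5 and Flt1; each colour is 1 probe set and lines join the arrays of a group only to guide the eye. The Eng probe sets mirror each other over most arrays, and the Flt1 probe sets follow no common course.

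Kdr encodes the main signalling receptor for vascular endothelial growth factor. Its probe set read 10.35, 10.28 and 10.23 in CR 1 to 3, 11.13, 10.03 and 11.14 in MC 1 to 3, and 10.93, 10.38 and 10.17 in YC 1 to 3. MC 1, MC 3 and YC 1 stood above the other 6 arrays, and MC 2 was the lowest of all, so no group was set apart. The log2 change was -0.48 ± 0.38 (SE, 95% interval -1.31 to 0.35, adjusted p = 0.493) for CR minus MC and 0.27 ± 0.38 for MC minus YC (adjusted p = 1.0).

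Flt1 encodes a receptor that binds the same ligand tightly and, in a soluble form, holds it away from Kdr's product. It had 4 tested probe sets, and they disagreed. The brightest (1451756_at) read 10.85, 10.32 and 10.78 in CR 1 to 3, 10.60, 10.33 and 10.30 in MC 1 to 3, and 11, 10.26 and 10.81 in YC 1 to 3. YC 1 was the highest and YC 2 the lowest of the 9 arrays, so the other groups lay within the YC range. Its log2 change was 0.24 ± 0.32 (SE, adjusted p = 0.694) for CR minus MC and -0.28 ± 0.32 for MC minus YC. Over all 4, the CR minus MC change was positive on 2 and negative on 2, from -0.25 ± 0.42 (1440926_at) to 0.63 ± 0.43 (1419300_at). The MC minus YC change ran from -0.28 to 1.12 ± 0.65 (1454037_a_at), and this last probe set had its lowest value, 7.04, on YC 2. The array annotation used here does not say which probe sets detect the soluble form.

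Tek and Tie1 encode the angiopoietin receptor of quiescent vessels and its partner receptor. Tek read 10.18, 10.41 and 10.25 in CR 1 to 3, 10.57, 10.40 and 10.43 in MC 1 to 3, and 10.32, 10.29 and 9.67 in YC 1 to 3. The MC arrays lay above all YC arrays in normalized values but not in deposited signals. Its log2 change was 0.37 ± 0.32 (SE, 95% interval -0.33 to 1.08, adjusted p = 1.0) for MC minus YC and -0.19 ± 0.32 for CR minus MC (adjusted p = 0.763). Tie1 read 9.34, 9.41 and 9.45 in CR 1 to 3, 9.64, 9.05 and 10.02 in MC 1 to 3, and 9.83, 8.01 and 10.19 in YC 1 to 3. The YC arrays alone spanned the whole range of Tie1, and its log2 changes were -0.17 ± 0.58 for CR minus MC and 0.23 ± 0.58 for MC minus YC, with adjusted p-values of 0.884 and 1.0.

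Cdh5 encodes VE-cadherin, the adhesion molecule of endothelial junctions. Its bright probe set (1433956_at) read 10.56, 10.66 and 10.67 in CR 1 to 3, 11.14, 10.92 and 11.69 in MC 1 to 3, and 10.83, 11.09 and 11.08 in YC 1 to 3. The 3 CR arrays were the lowest of the 9, below every MC and every YC array. The same held in deposited signals, from 1337.7 to 1498.1 in CR against 1913.6 to 3090.5 in MC. On that scale every CR array also had a lower median than every MC array, so it is no separate support. The log2 change was -0.62 ± 0.28 (SE, n = 3 per group, 95% interval -1.24 to 0.00, limma adjusted p = 0.271) for CR minus MC, -0.37 ± 0.28 for CR minus YC (adjusted p = 0.560) and 0.25 ± 0.28 for MC minus YC (adjusted p = 1.0). None of these passed the threshold. The second probe set (1422047_at) did not pass the filter, and without it gave -0.51 ± 0.76 for CR minus MC.

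Cldn5 encodes a claudin that seals endothelial tight junctions at blood-tissue barriers. It read 11.57, 11.67 and 11.59 in CR 1 to 3, 11.86, 11.96 and 12.28 in MC 1 to 3, and 11.77, 10.61 and 11.78 in YC 1 to 3. MC lay above CR and above YC without overlap, YC 2 lay far below the others, and YC 1 and YC 3 lay between CR and MC. The log2 change was -0.42 ± 0.32 (SE, 95% interval -1.13 to 0.28, adjusted p = 0.476) for CR minus MC and 0.65 ± 0.32 (95% interval -0.06 to 1.36, adjusted p = 1.0) for MC minus YC. Without YC 2 the MC minus YC change was 0.26. In deposited signals Cldn5 ran from 3162.0 to 3402.8 in CR and 3510.6 to 4419.2 in MC, still without overlap, whereas MC and YC overlapped.

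Pecam1 encodes an adhesion molecule of endothelial junctions that platelets and leukocytes carry too. It read 10.33, 10.10 and 9.87 in CR 1 to 3, 9.59, 9.86 and 6.03 in MC 1 to 3, and 10.70, 9.04 and 10.07 in YC 1 to 3. MC 3 stood apart from every other array, with a deposited signal of 75.6 beside 930.2 and 997.6 in MC 1 and MC 2. With it, the log2 change was 1.61 ± 0.89 (SE, adjusted p = 0.344) for CR minus MC and -1.44 ± 0.89 (adjusted p = 1.0) for MC minus YC. Without MC 3 these changes were 0.38 and -0.21. The CR and MC groups did not overlap in normalized values, where the nearest arrays were CR 3 at 9.87 and MC 2 at 9.86, and they overlapped in deposited signals.

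Vwf encodes von Willebrand factor, a clotting protein stored by endothelial cells and megakaryocytes. It read 12.08, 12.04 and 12.17 in CR 1 to 3, 11.04, 12.19 and 11.83 in MC 1 to 3, and 11.93, 11.84 and 12.38 in YC 1 to 3. MC 1 was the lowest of the 9, and MC 2 was above all CR arrays. The log2 change was 0.41 ± 0.30 (SE, 95% interval -0.26 to 1.07, adjusted p = 0.465) for CR minus MC, and 0.08 without MC 1. For MC minus YC it was -0.36 ± 0.30 (adjusted p = 1.0), and -0.04 without MC 1.

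**Figure D3:**
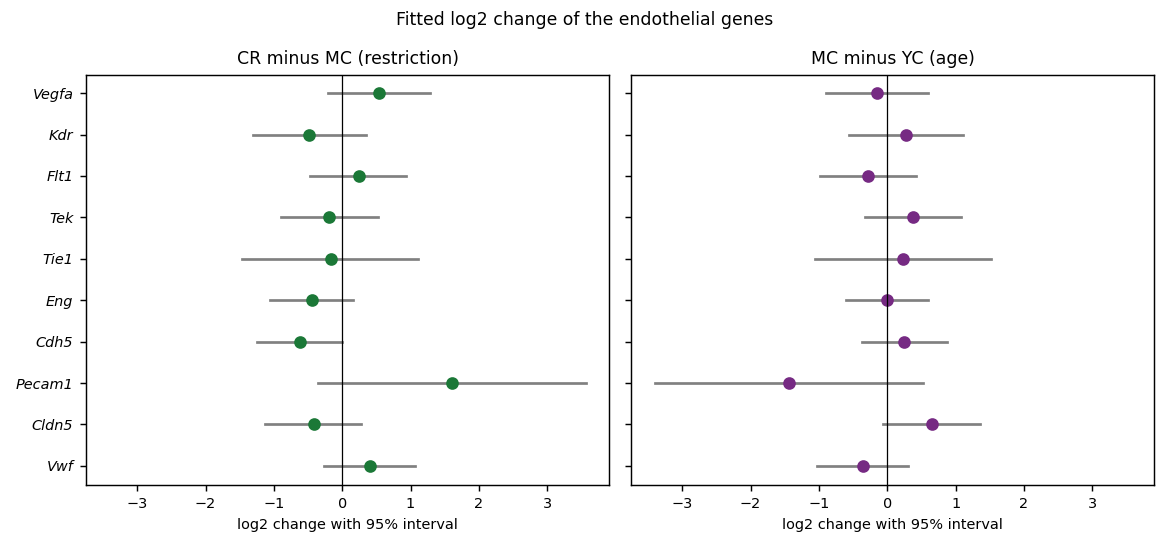
Fitted log2 change (x axis) of the brightest probe set of each gene (y axis) for CR minus MC on the left and MC minus YC on the right; points are the limma estimates and lines their 95% intervals from 3 arrays per group. Every interval includes 0 or reaches it, as that of Cdh5 does at its upper end for CR minus MC.

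Counting separation alone, 3 of the 14 probe sets did not overlap between CR and MC (Cdh5 and Cldn5 lower, Pecam1 higher), while 37.8% of all tested probe sets did not, 19.5% being higher and 18.2% lower in CR. In deposited signals it was 7 of 14, against 44.0% of all, and 2 probe sets, those of Cdh5 and Cldn5, were separate on both scales. The 5 that were separate in deposited signals only were Kdr, Tek, Tie1 and 1 Flt1 probe set (1454037_a_at), all lower in CR, and Vwf, higher in CR. Deposited medians were lower on every CR array than on every MC array. Between MC and YC, 2 of 14 did not overlap (Tek and Cldn5, both higher in MC), against 5.88% of all tested probe sets (2.97% higher and 2.91% lower), and 0 of 14 in deposited signals, against 5.21%. Between CR and YC, 3 of 14 did not overlap, against 20.5% of all (11.4% higher and 9.10% lower in CR, and 18.9% in deposited signals, where it was also 3 of 14): Cdh5 and the brighter Eng probe set were lower in CR and 1 Flt1 probe set (1419300_at) was higher. The CR minus YC changes of the 10 genes lay between -0.45 ± 0.27 in Eng and 0.38 ± 0.34 in Vegfa, with adjusted p-values of 0.497 and 0.608. CR is set against MC and against YC, and MC against YC, so the 3 comparisons share arrays and are not independent.

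Single arrays decided many of these values. MC 3 was the highest or lowest of the 9 arrays for 9 of the 16 probe sets and YC 2 for 5, beside 31.2% and 47.6% of all tested probe sets. The 16 include the dimmer Vegfa and the second Cdh5 probe set, which did not pass the filter. MC 3 was the lowest in the former and the highest in the latter, while the percentages cover only probe sets past the filter. MC 3 was the highest in Cdh5, Cldn5, Kdr and the brighter Eng probe set and the lowest in Pecam1 and the brighter Vegfa probe set. Leaving out both arrays gave CR minus MC changes of -0.40 ± 0.23 in Cdh5 (adjusted p = 0.299), -0.30 ± 0.18 in Cldn5 (adjusted p = 0.314) and 0.32 ± 0.27 in Vegfa (adjusted p = 0.484). This choice was made after the values were seen.

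With array class as a term in the fit, the CR minus MC change rests on YC 1 to tie the classes together. It was -0.37 in Cdh5, -0.99 in Cldn5, -1.13 in Kdr, -0.52 in Tek and -0.91 in Tie1, and it turned to 0.13 in Eng, -0.07 in Vegfa and -0.23 in Flt1. Within the 5 arrays of high median signal, the MC minus YC change ran from -1.06 in Pecam1 to 0.84 in Cldn5, and within the 4 of low median signal, where YC 1 is the only young array, the CR minus YC change ran from -0.64 in Kdr to 0.17 in Vwf. A single young array gives that comparison no spread of its own, so missing calls there say nothing about stability. No class holds both CR and MC. When each array was only shifted to a common median, which moves the median CR minus MC change of all tested probe sets to 0.58, the Cdh5 change was -0.10 and those of Cldn5, Eng and Tek turned to 0.35, 0.34 and 0.11. Cdh5, Kdr, Pecam1 and Vwf kept the sign of their CR minus MC change in every alternative run. Several of these runs, such as those without 1 YC array or with the replicate block, cannot move that change.

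**Figure D4:**
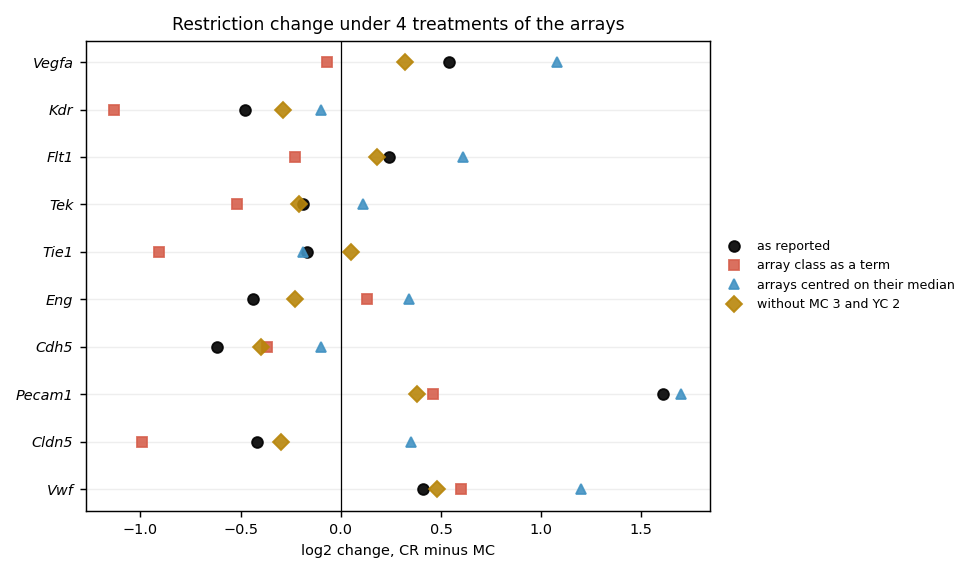
Log2 change for CR minus MC (x axis) of the brightest probe set of each gene (y axis) under 4 treatments of the arrays: as reported, with array class as a term, after only a shift to a common median (arrays centred), and without MC 3 and YC 2. Cdh5 and Kdr stay below 0 and Pecam1 and Vwf above 0 under all 4, and the other genes cross 0 under at least 1.

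Other genes of the vascular endothelial growth factor and angiopoietin pathway did not pass the threshold either. Of 25 listed ligands, receptors and regulators, 24 passed the signal filter, and 0 of the 24 were called for CR against MC, for MC against YC or for CR against YC in limma. For CR minus MC, 10 had a positive and 14 a negative change (median -0.10), and 3 of the 24 had an unadjusted p under 0.05, beside 18.5% of all tested probe sets. Those were Nrp2, a co-receptor for vascular endothelial growth factors (-0.97 ± 0.33, adjusted p = 0.193), the endothelial Notch receptor gene Notch4 (-1.87 ± 0.65, adjusted p = 0.200), and Bmpr2, a receptor for bone morphogenetic proteins (0.48 ± 0.20, adjusted p = 0.242). Notch4 spread widely within CR, at 6.72, 8.05 and 9.43 in CR 1 to 3, beside 9.82, 9.80 and 10.20 in MC 1 to 3. For MC minus YC, 14 were positive and 10 negative (median 0.08) and 0 had an unadjusted p under 0.05, beside 3.39% of all tested probe sets. There the smallest p belonged to the Notch ligand gene Dll4 (0.75 ± 0.39), Pdgfb (-0.84 ± 0.60), which encodes the growth factor that recruits pericytes, and Nrp2 (0.37 ± 0.33).

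A longer list of 34 endothelial markers gave 29 genes past the filter, 16 with a positive and 13 with a negative CR minus MC change (median 0.19) and 0 called. At an unadjusted p of 0.05 there were 4 of 29, beside 18.5% of all tested probe sets. The 3 with the smallest p went different ways: Slco1c1, a thyroid hormone and anion transporter of barrier capillaries and of astrocytes (2.00 ± 0.51, adjusted p = 0.153), Calcrl, the receptor gene for adrenomedullin (-2.00 ± 0.65, adjusted p = 0.189), and the endothelial matrix gene Mmrn2 (-0.88 ± 0.33, adjusted p = 0.214). The Calcrl change leans on CR 3, which read 6.39 beside 8.65 and 8.89 in CR 1 and CR 2. For MC minus YC, 19 were positive and 10 negative (median 0.05), with 0 called. At an unadjusted p of 0.05 there was 1 of 29, beside 3.39% of all tested probe sets, so about the general share. It was the transcription factor gene Sox17 (-1.09 ± 0.39). Among 14 junction and adhesion genes past the filter, 10 had a positive and 4 a negative CR minus MC change (median 0.44), with 0 called. The 3 with the smallest p were Cdh2 (1.23 ± 0.39, adjusted p = 0.187), Ctnnb1 (0.60 ± 0.20, adjusted p = 0.190) and Vcam1 (0.96 ± 0.40, adjusted p = 0.243), which neural, epithelial or stromal cells express too. In that list 3 were positive and 11 negative for MC minus YC (median -0.20), again with 0 called. For lymphatic vessels, 5 of the 6 listed markers with a probe set passed the filter and 0 were called. For CR minus MC, 2 of these 5 had a positive and 3 a negative change (median -0.08). Lyve1, a hyaluronan receptor gene of lymphatic endothelium and some macrophages, had the smallest p there (0.45 ± 0.31). Pdpn (-0.24 ± 0.24) and Flt4 (-0.23 ± 0.33) came next and went the other way.

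Hypoxia response genes, many of which are induced together with Vegfa under low oxygen, were all past the filter (15 of 15) and 0 were called in any comparison. Of all tested probe sets, 0.0925% were called for CR against MC and 0% for MC against YC and for CR against YC. For CR minus MC, 6 had a positive and 9 a negative change (median -0.03). At an unadjusted p of 0.05 there were 2 of 15, beside 18.5% of all tested probe sets. These were Egln3, an oxygen-sensing prolyl hydroxylase gene (-1.14 ± 0.25, adjusted p = 0.133), and Ldha, a lactate dehydrogenase gene of glycolysis (-0.65 ± 0.16, adjusted p = 0.146). Adm, the adrenomedullin gene, came next by p and went the other way (0.91 ± 0.45, adjusted p = 0.298). Egln3 had a change of 0.98 ± 0.25 for MC minus YC (adjusted p = 1.0), where 11 of the 15 were positive and 4 negative (median 0.21).

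The mean course of the 10 genes over the arrays varied most within YC. After each gene's brightest probe set was standardized, their mean lay between -0.12 and -0.02 SD units in CR, between -0.07 and 0.26 in MC and between -0.62 and 0.39 in YC, with YC 2 lowest and YC 1 highest. Over the 9 arrays the named genes with the most similar course were Alox5ap (Pearson r = 0.97), Ctxn1 (0.95), Cmc2 (0.95), Myo1f (0.94), Slc43a3 (0.94) and Cnot2 (0.94). These are the highest of all named probe sets tested, the 9 arrays include both classes, and the values are given as a description only.

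Among the lists for other cells in the pools, the skeletal muscle list held calls for CR against MC and the others held none; differences between lists were not tested. Of 15 skeletal muscle genes, 12 fell in CR against MC at the threshold, where 0.0925% of all tested probe sets were called in either direction, with a median log2 change of -2.33 over all 15 and summed signals from 256787 to 358739 in CR and from 946839 to 1361491 in MC. Myh2, a myosin heavy chain gene of fast fibres, was among them (-4.31 ± 0.43, limma adjusted p = 0.0233). All 12 calls were lost with the replicate block, array class, the array median as a covariate, no variance trend or centred arrays, and without CR 2, CR 3, MC 1 or MC 3, since no probe set of the table was called there. Brain tissue genes had a median change of 1.25 for CR minus MC with 13 of 14 positive and 0 called, and summed signals from 155814 to 173348 in CR and from 108171 to 125559 in MC. Sums are linear, so the brightest gene of a list weighs most, here Mbp with a change of 0.21 ± 0.17. Lateral wall and fibrocyte genes had a median of 1.04 with 12 of 13 positive and 0 called, and sums from 152404 to 224043 in CR and from 94511 to 108790 in MC. At an unadjusted p of 0.05 there were 10 of 14 brain genes and 10 of 13 lateral wall genes, beside 18.5% of all tested probe sets. The endothelial genes themselves summed to between 20586 and 21016 in CR, 20830 and 24922 in MC, and 18610 and 23621 in YC, so the CR range overlapped the other ranges. The part of muscle, brain or lateral wall tissue in the endothelial values was not tested.

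Among cells that accompany vessels or blood, pericyte and smooth muscle genes had a median change of -0.09 for CR minus MC with 6 of 14 positive and 8 negative, 0 called, and sums from 71242 to 78734 in CR and from 82064 to 88331 in MC. The member with the smallest p there was Des, desmin, which skeletal muscle expresses strongly too (-2.05 ± 0.40, adjusted p = 0.0972). Notch3, a receptor gene of mural cells, followed at -0.52 ± 0.23 (adjusted p = 0.265). Platelet and megakaryocyte genes, a second source of Vwf and Pecam1, had a median of -0.37 with 2 of 9 positive, 0 called, and sums from 29597 to 43476 in CR and from 32719 to 48351 in MC. Macrophage and leukocyte genes had a median of -0.26 with 5 of 15 positive, 0 called, and sums from 231727 to 244989 in CR and from 186539 to 277014 in MC. These sums rest mostly on Lyz2, with log2 signals from 17.50 to 17.58 in CR and from 16.92 to 17.73 in MC. In that list 2 of 15 had an unadjusted p under 0.05, beside 18.5% of all tested probe sets. They were Adgre1 (-0.97 ± 0.23, adjusted p = 0.146) and Trem2 (-2.41 ± 0.63, adjusted p = 0.156). For erythroid genes the median was -0.27, with 5 of 5 negative and 0 called, and the sums were 37970 to 55369 in CR and 53960 to 79019 in MC. The hair cell and organ of Corti list gave a median of -0.44, with 2 of 8 positive and 0 called. Its member with the smallest p was Pvalb, which fast muscle fibres express too (-1.49 ± 0.30, adjusted p = 0.101). For MC against YC, 0 genes of any of these lists were called.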

How the data were processed

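Biotin-labelled cRNA from pooled cochlear RNA was hybridized to 1-colour arrays, and the submitters' processing notes name GCOS 1.3. The authors deposited a table of linear signal intensity per probe set, with each array scaled to a common trimmed mean, and its signal algorithm and scaling target are not stated there. Array medians differed 2.1-fold, above the planned limit of 1.5, so log2(signal + 16) values were quantile normalized. The added 16 makes log2 changes of dim features too small. Tests kept the 27022 of 45037 probe sets whose mean lay at or over the 40th percentile.

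Group means of all 9 arrays were fitted with limma 3.58.1 under R 4.3.3 (lmFit, eBayes with a variance trend), with Benjamini-Hochberg adjustment over all tested probe sets and a threshold of 0.05. Standard errors and 95% intervals come from this fit, and the number of arrays limits the precision (median SE 0.43). Array class divides arrays by median signal below or above 734.5, the middle of the widest gap. The labels give no scan date. The fit was tested on simulated data with independent noise on each array and no array class. That test cannot show how the fit copes with array class or with single outlying arrays.

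Platform annotation gave 1 symbol for 34945 probe sets, several for 932 and none for 9160, and symbols were updated through gene IDs in RefSeq of GRCm38.p6 (34741 matched). Each gene is represented by its brightest probe set. Of the 10 genes, 6 had 1 probe set and 4 had several. The 10 genes, the lists and the alternatives were chosen with earlier results of these data known. Named from each list were up to 4 called members, or else the 3 with the smallest p, of which the text prints some, and the 6 genes nearest in course. Equal replicate numbers did not pair samples: correlations of their deviations between groups ran from -0.29 to 0.266.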

Additional observations from a re-analysis of the deposited data

How the results depend on the processing

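No endothelial probe set was called under any of 25 alternatives, where the lowest adjusted p was 0.111. Those that rest on YC 1 alone, array class and low-median arrays, say nothing about stability. Of 882 recomputed changes, which include means over the probe sets of a gene, 800 kept their direction and 82 turned sign. Of the 82, 25 turned on leaving out 1 array, and 13 of 38 changes never turned. Many of the runs leave a change as it was by construction, so the 800 do not measure stability. Such runs include another filter, no variance trend, the replicate block and leaving out an array of the group not compared. The count of called probe sets over the whole table varied between runs. For CR minus MC, 25 in the fit as reported, it was 0 with arrays centred on their median, without a variance trend, with the replicate block, with array class as a term and with the array median as a covariate. It was 7 in deposited scaling, 3397 with array weights, whose estimation stopped before converging, 1846 with only the compared groups, 494 without both MC 3 and YC 2, and 0 to 987 on leaving out 1 array. For CR minus YC, 0 as reported, it was 3 within low-median arrays and 0 to 363 on leaving out 1 array. For the F test, 0 as reported, it was 1 without a filter, 1 in deposited scaling, 1027 with array weights, 13 without both arrays and 0 to 146 on leaving out 1. The replicate block changed no endothelial call. The cause of these shifts was not tested.

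Signs turned as follows, all uncalled. For MC minus YC, Vegfa gave 0.05 with array class, 0.02 with the median covariate, 0.05 within high-median arrays and 0.13 as a mean of probe sets, with -0.44 to 0.06 on leaving out 1 array. Kdr gave -0.01 centred. Flt1 gave 0.25 as a mean of probe sets. Flt1 1419300_at gave 0.04 in deposited scaling, 0.14 with weights, 0.03 with array class, 0.05 with the covariate, 0.03 within high-median arrays and 0.38 without both arrays, with -0.35 to 0.44 on leaving out 1, and 1440926_at gave -0.13 to 0.68. Tie1 gave -0.03 with weights, -0.66 without both arrays and -0.44 to 0.65 on leaving out 1. Eng gave 0.01 with weights and -0.21 to 0.21, and Eng 1432176_a_at 0.06 with array class, 0.09 with the covariate, 0.06 within high-median arrays and -0.62 to 0.06.

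For CR minus MC, Vegfa gave -0.07 with array class. Flt1 gave -0.01 in deposited scaling, -0.23 with array class and -0.17 with the covariate. Flt1 1440926_at gave 0.01 centred, 0.05 with array class, 0.04 with the covariate and -0.72 to 0.09 on leaving out 1, and 1454037_a_at gave -0.50 to 0.03. Tek gave 0.11 centred, Cldn5 0.35 centred, and Tie1 0.05 without both arrays and -0.43 to 0.05. Eng gave 0.34 centred, 0.13 with array class and 0.19 as a mean of probe sets.

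For CR minus YC, array class and low-median arrays alone gave the same values: -0.02 in Vegfa, -0.04 in Tek, -0.43 in Tie1, -0.60 in Pecam1 and -0.15 in Cldn5. With the covariate Tie1 gave -0.42, Pecam1 -0.69 and Cldn5 -0.11. Deposited scaling gave -0.09 in Tek, -0.35 in Tie1 and -0.23 in Pecam1, weights -0.11 in Tie1 and -0.09 in Pecam1, and centring 0.15 in Flt1 and 0.11 in Eng. Means of probe sets gave 0.34 in Flt1 and 0.09 in Eng. Without both arrays Tie1 gave -0.61, Pecam1 -0.29, Cldn5 -0.16 and Vwf -0.06. On leaving out 1 array, Kdr ran from -0.37 to 0.01, Flt1 from -0.26 to 0.12, Tek from -0.02 to 0.30, Tie1 from -0.61 to 0.48, Pecam1 from -0.29 to 0.55, Cldn5 from -0.16 to 0.42 and Vwf from -0.06 to 0.21.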
